A study of Homo sapiens and Mus musculus with 20 samples.

Results

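The genes described here are 46 developmental transcription factors that lie outside the HOX clusters, taken by name from 10 families or single genes (PAX, SOX, NKX, GATA, FOX, LHX with SIX2, T-box, basic helix-loop-helix, WT1, and the EN, DLX, MSX, OTX and IRX homeobox genes). All 46 were found among the 19974 protein-coding genes of the RefSeq GRCh38.p14 table. A gene was called marked when a listed region lay within 2.5 kb of either of its ends. The measurements were chromatin immunoprecipitation followed by sequencing (ChIP-seq) in human multiple myeloma cell lines, deposited as lists of enriched regions. In ARP1 cells, libraries of H3K27ac, H3K27me3 and input DNA came from cells with KDM6A knocked out (KO), from cells labelled KDM6A JmjD-dead, whose titles name the allele H1146E, and from cells with wild-type KDM6A (WT). H3K4me1 was profiled in KO and WT cells. A KDM6A antibody was used on ARP1 KO and ARP1 WT cells and on KARPAS cells with wild-type KDM6A. An HA antibody was used on an HA-tagged ARP1 line, which carries the knock out label, and on an untagged ARP1 line labelled wild type. The labels name no agent or time and do not say whether a line is a single clone. With 1 library in each group, differences have no replicate check, no test across samples was possible and no p-value is given.

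Developmental transcription factors such as these set up tissues in the embryo and are silent in most mature cells. In many cell types Polycomb complexes hold them in that state by placing H3K27me3 over their promoters, which are mostly rich in CG dinucleotides. KDM6A removes methyl groups from H3K27me3 through its JmjC domain and also belongs to the KMT2C and KMT2D complexes, which place H3K4me1 at enhancers. H3K27ac marks active promoters and enhancers. Myeloma is a cancer of plasma cells, the antibody-secreting end stage of the B lineage, a setting far from the tissues these factors are best known for.

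The H3K27ac libraries held 25568819 (KO), 31171803 (JmjD-dead) and 30772474 (WT) fragments and gave 76242, 74063 and 69127 regions in that order. The H3K27me3 libraries were shallower, from 5026016 to 10449019 fragments, with 11865 (KO), 37236 (JmjD-dead) and 17355 (WT) regions. The H3K4me1, KDM6A and HA libraries held 11898708 to 37389280 fragments or tags, and the 3 inputs at most 724630 fragments. The KDM6A antibody gave 44936 (ARP1 KO), 90964 (ARP1 WT) and 55867 (KARPAS) regions. The HA antibody gave 54338 in the tagged and 78725 in the untagged line. The labelled cell type was checked on 10 plasma cell genes, SDC1, TNFRSF17 and PRDM1 among them. All 10 carried H3K27ac in each ARP1 genotype. The myeloid and erythroid markers carried it at 1 of 6 genes in KO and at 0 of 6 in both JmjD-dead and WT. B cell markers carried it at 4 (KO), 3 (JmjD-dead) and 4 (WT) of 7 genes, T and NK cell markers at 3, 4 and 4 of 8, and epithelial and stromal markers at 4, 2 and 3 of 6. Of all coding genes, 63.7% (KO), 61.7% (JmjD-dead) and 61.6% (WT) carried it, so marker counts near these shares say little about cell type. Cells cannot be separated in these bulk libraries, so a mark in a few cells and a faint mark in all cells cannot be told apart.

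Few of the 46 factors carried an active mark. H3K27ac lay at 10 of 46 in KO cells, where 63.7% of all coding genes carried it, at 8 of 46 in JmjD-dead cells, against 61.7% of all genes, and at 8 of 46 in WT cells, against 61.6% of all genes. Of the 46, 36 had no H3K27ac region in any of the 3 genotypes, and 7 had one in all 3. H3K4me1 lay at 7 of 46 in KO cells, against 37.4% of all genes, and at 10 of 46 in WT cells, against 65.5% of all genes. In 13 antibody lists, 30 factors had no region at all within 2.5 kb of an end, and the other 16 had at least 1. For these counts joined over genotypes or lists, the share over all genes was not computed.

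H3K27me3 was scarcer still. It lay at 0 of 46 factors in KO cells, where 10.9% of all coding genes carried a region, at 1 of 46 in JmjD-dead cells (FOXC1), against 22.6% of all genes, and at 2 of 46 in WT cells (TBX1 and NEUROG2), against 12.9% of all genes. These lists were called as narrow regions from shallow libraries, and 70.8% (KO), 50.6% (JmjD-dead) and 64.4% (WT) of their regions lay on an H3K27ac region of the same genotype. Housekeeping genes held an H3K27me3 region at 6 (KO), 12 (JmjD-dead) and 9 (WT) of 20 genes, so the absence of a listed region at a factor is a statement about these lists and not a measurement of the methylation level.

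**Figure D1:**
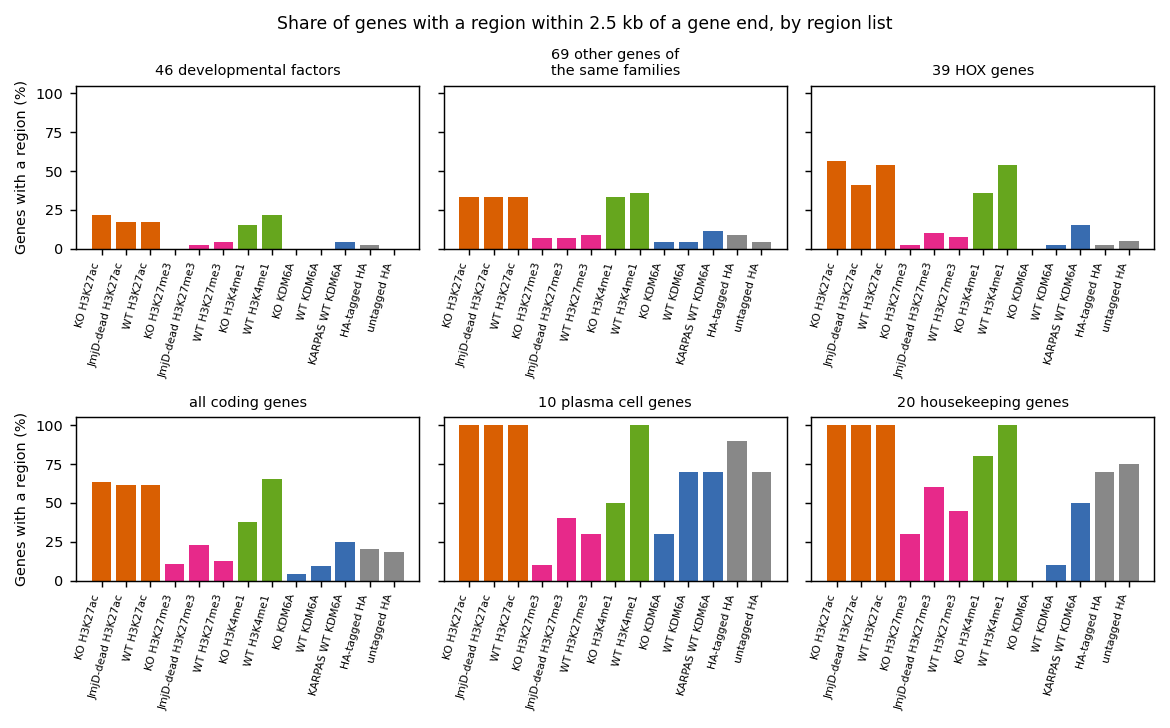
Share of genes (percent, y axis) with a region no more than 2.5 kb from a gene end, by antibody list (13 lists, x axis; lists without a cell name are ARP1), for the 46 factors, 69 other genes of the same families, 39 HOX genes, all coding genes, 10 plasma cell genes and 20 housekeeping genes. The bars of the 46 factors stay low in every list, with H3K27ac at 10 (KO), 8 (JmjD-dead) and 8 (WT) genes.

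Related genes were counted for comparison. Of 69 other genes of the same families, 23 held H3K27ac in each genotype. Of 39 HOX genes, 22 (KO), 16 (JmjD-dead) and 21 (WT) held it. No test was made between these lists.

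The promoters of 31 of the 46 factors were found in the RefSeq table of GRCh38.p14, each running from 250 bases before the gene start to 50 after it. Of these, 5 are shown, read 5′ to 3′ on the strand of the gene, with every CG dinucleotide in capitals. The first 3 belong to the factors whose window was overlapped by H3K27ac in all 3 genotypes, FOXC1 (plus strand, chr6:1609665-1609964), SIX2 (minus strand, chr2:45009403-45009702) and MSX1 (plus strand, chr4:4859415-4859714). The last 2 belong to factors with no H3K27ac, H3K27me3 or H3K4me1 region within 10 kb of an end, EN2 (plus strand, chr7:155457879-155458178) and FOXA1 (minus strand, chr14:37595200-37595499).
FOXC1: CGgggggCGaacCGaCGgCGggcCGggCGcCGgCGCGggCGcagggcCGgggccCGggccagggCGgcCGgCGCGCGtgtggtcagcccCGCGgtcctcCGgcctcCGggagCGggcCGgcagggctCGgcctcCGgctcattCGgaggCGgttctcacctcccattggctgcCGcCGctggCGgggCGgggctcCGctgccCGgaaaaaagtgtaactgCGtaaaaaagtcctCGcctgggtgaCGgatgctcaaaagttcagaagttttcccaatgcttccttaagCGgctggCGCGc
SIX2: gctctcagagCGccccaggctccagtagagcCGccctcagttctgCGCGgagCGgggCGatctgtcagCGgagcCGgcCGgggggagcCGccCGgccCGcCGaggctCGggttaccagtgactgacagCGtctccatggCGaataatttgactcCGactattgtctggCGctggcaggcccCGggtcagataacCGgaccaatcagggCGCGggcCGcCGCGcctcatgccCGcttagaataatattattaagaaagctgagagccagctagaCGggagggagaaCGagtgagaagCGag
MSX1: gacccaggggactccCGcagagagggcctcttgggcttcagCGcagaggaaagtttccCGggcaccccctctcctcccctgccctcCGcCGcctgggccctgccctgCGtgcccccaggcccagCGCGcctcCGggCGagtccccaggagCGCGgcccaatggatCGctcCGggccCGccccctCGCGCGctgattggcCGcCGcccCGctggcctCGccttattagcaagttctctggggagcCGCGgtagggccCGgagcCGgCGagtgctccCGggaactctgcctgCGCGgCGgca
EN2: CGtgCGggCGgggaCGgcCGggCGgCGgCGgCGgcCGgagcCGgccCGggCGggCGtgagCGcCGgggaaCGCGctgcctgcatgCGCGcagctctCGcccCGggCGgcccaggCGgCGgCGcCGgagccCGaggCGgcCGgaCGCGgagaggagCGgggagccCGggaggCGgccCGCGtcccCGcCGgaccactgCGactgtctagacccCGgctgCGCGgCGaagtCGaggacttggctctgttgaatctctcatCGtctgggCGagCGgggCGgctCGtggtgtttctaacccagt
FOXA1: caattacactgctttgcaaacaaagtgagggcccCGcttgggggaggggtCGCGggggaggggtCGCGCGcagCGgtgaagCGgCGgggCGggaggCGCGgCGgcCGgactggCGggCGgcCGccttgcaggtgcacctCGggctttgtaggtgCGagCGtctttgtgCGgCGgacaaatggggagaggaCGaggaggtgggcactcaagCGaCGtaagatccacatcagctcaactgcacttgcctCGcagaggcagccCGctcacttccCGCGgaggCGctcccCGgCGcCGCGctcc

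The marked promoters held 40 (FOXC1), 29 (SIX2) and 31 (MSX1) CG dinucleotides, and the unmarked ones 50 (EN2) and 34 (FOXA1). H3K27ac covered all 300 bases at FOXC1 and MSX1 in the 3 genotypes, but at SIX2 it covered 13 (KO), 63 (JmjD-dead) and 34 (WT) bases, since the window fell in a gap between the SIX2 regions. Over the 31 factors the median was 24 CG per promoter, against 22 over 15812 coding-gene promoters. The 6 promoters of factors with H3K27ac in WT had a median of 25.5, and those of the unmarked factors 24. The CG-rich state of the promoters was thus shared by factors with and without the mark.

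Other letters were searched on both strands. GGGCGG, the core of the SP1 site, occurred in 18 of 31 promoters of the factors and in 58.5% of all promoters. CANNTG, the E-box letters, occurred in 15 of 31 and in 64.5% of all. TATAAA occurred in 1 of 31, against 9.64% of all, and AGATAA in 2 of 31, against 7.55% of all. The core letters of the interferon-stimulated response element occurred in 1 of 31, against 3.17% of all, and those of the ETS and IRF composite element in 1 of 31, against 2.5% of all. A match is only a match of letters. No promoter sequence is shown for PAX1, SOX9, SOX10, SOX17, NKX2-5, GATA4, FOXA2, LHX1, TBX2, TBX3, OLIG1, OLIG2, EN1, DLX5 and IRX3.

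**Figure D2:**
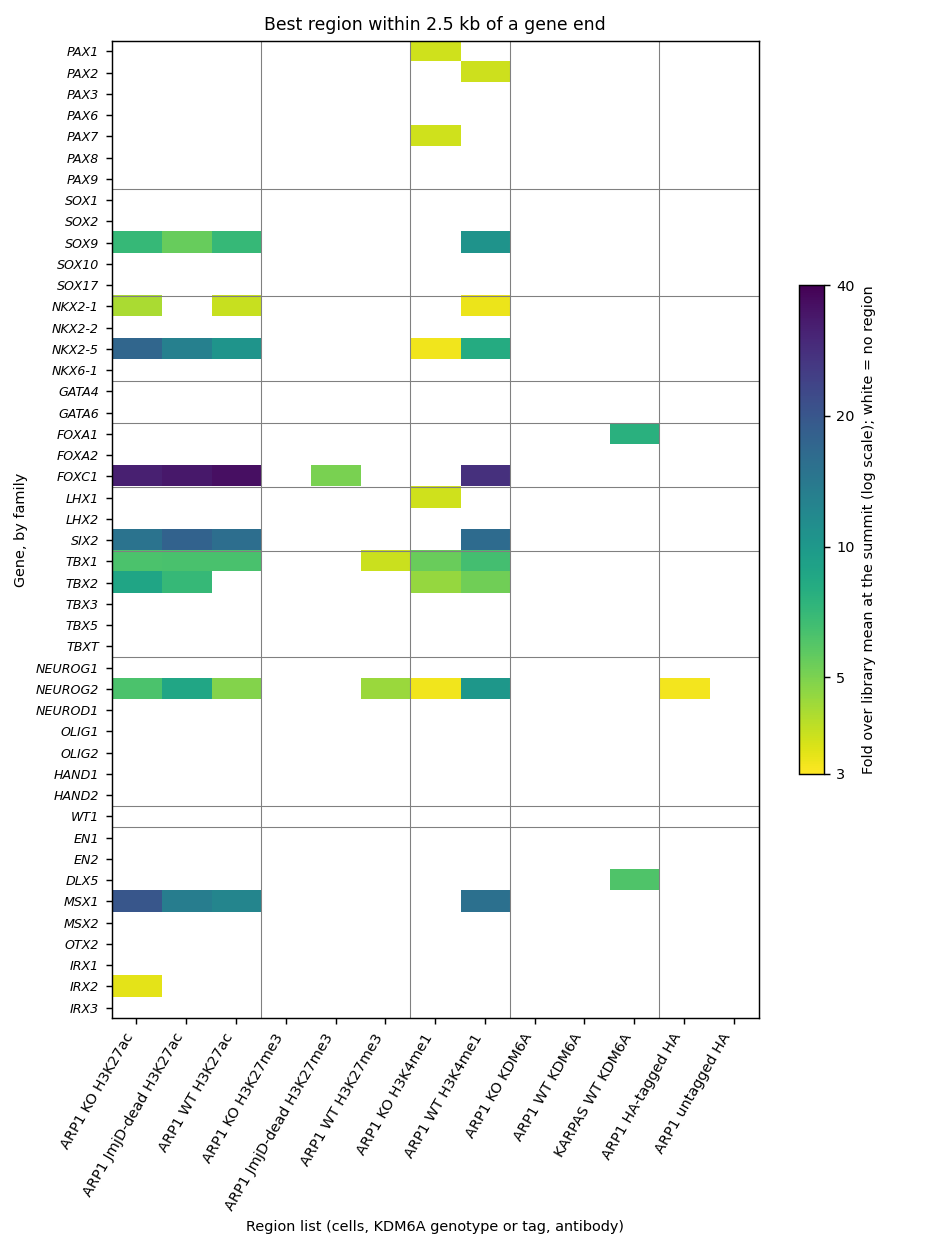
Highest fold over the library mean at the summit (colour, log scale from 3 to 40) of any region within 2.5 kb of a gene end, for the 46 factors (rows, by family) in 13 antibody lists (columns); white means no region. Most rows are white, FOXC1 is the darkest row with 32.0 (KO), 33.8 (JmjD-dead) and 36.1 (WT) in H3K27ac, and the KDM6A and HA columns hold 3 cells.

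PAX genes encode paired-box factors of the eye, kidney, thyroid, muscle, neural crest and axial skeleton. None of the 7 listed here (PAX1, PAX2, PAX3, PAX6, PAX7, PAX8, PAX9) carried H3K27ac or H3K27me3 at an end in any genotype. Their only gene-end regions were faint H3K4me1 regions. PAX1, a factor of the developing vertebral column, and PAX7, a muscle stem cell factor, had 1 each in KO, of fold 3.62 and lengths of 131 and 140 bp. PAX2, a kidney and optic factor, had 1 in WT, of fold 3.64 and 122 bp. PAX8, a thyroid and kidney factor, held H3K27ac inside the gene, in all 3 genotypes: the best region had fold 38.7 in KO, 31.8 in JmjD-dead and 33.1 in WT cells. PAX5, the B-lineage member that is not among the 46, held gene-end H3K27ac in KO and WT and not in JmjD-dead cells.

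SOX genes encode HMG-box factors. SOX9, a factor of cartilage and testis, was the 1 of 5 with H3K27ac: its region at the gene start had fold 7.07 over 893 bp in KO, 5.50 over 646 bp in JmjD-dead, and 7.07 over 951 bp in WT cells. H3K4me1 at SOX9 reached fold 10.5 in WT cells, and no gene-end region was listed in KO cells. SOX1 and SOX2, both neural progenitor factors, SOX10, a neural crest factor, and SOX17, an endoderm factor, had no gene-end region in any antibody list. The nearest H3K27ac region to SOX2 lay 16446 bp (KO), 241594 bp (JmjD-dead) and 16402 bp (WT) from an end.

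Among the NKX homeobox genes, NKX2-5, a heart factor, held H3K27ac of fold 17.0 in KO, 13.0 in JmjD-dead and 10.4 in WT cells, over 1048, 925 and 920 bp in that order. Within their own lists these regions ranked 14114, 19231 and 21543, counted from the strongest. H3K4me1 at NKX2-5 was listed at different places: fold 8.10 across a gene end in WT, and fold 3.17 in KO, 587 bp outside the gene. NKX2-1, the lung and thyroid factor, had a faint H3K27ac region of fold 4.16 over 557 bp in KO cells, none in JmjD-dead cells, where the nearest lay 36943 bp away, and one of fold 3.72 over 167 bp in WT cells. The promoter window of NKX2-1 was covered in KO only, and H3K4me1 was listed in WT only, with fold 3.24. NKX2-2, a neural and islet factor, and NKX6-1, a beta cell factor, had no gene-end region in any antibody list.

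Neither GATA4, a heart and gut factor, nor GATA6, an endoderm and heart factor, had a gene-end region in an antibody list. GATA4 did have 1 in the KO input, of fold 2.89 and a pileup of 2 fragments. Of the forkhead genes, FOXC1, a factor of mesenchyme and vessels, was the most strongly marked of all 46. Its H3K27ac region spanned the gene start with fold 32.0 over 2009 bp in KO, 33.8 over 2207 bp in JmjD-dead, and 36.1 over 2040 bp in WT cells. That is close to the median of all marked genes, which was 32.0 in KO, 33.4 in JmjD-dead and 32.8 in WT cells. H3K4me1 over the same place had fold 27.9 in WT cells, and none was listed in KO. In JmjD-dead cells an H3K27me3 region of 272 bp and fold 5.06 (chr6:1608613-1608884) overlapped the upstream edge of the H3K27ac region. FOXA1, a liver and prostate factor, had no histone region within 10 kb, and FOXA2, an endoderm factor, had none either.

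SIX2, a factor that maintains kidney progenitors, held 2 H3K27ac regions in every genotype. The larger lay over the gene next to its start, with fold 15.0 over 2066 bp in KO, 17.7 over 2058 bp in JmjD-dead, and 15.6 over 2528 bp in WT cells. The smaller lay upstream of the start with fold 9.14 (KO), 8.65 (JmjD-dead) and 8.94 (WT). H3K4me1 at SIX2 had fold 16.2 in WT cells and no region in KO cells. The LIM homeobox genes differed from it. LHX1, a kidney and head factor, had a 221 bp H3K4me1 region of fold 3.62 in KO only, 2336 bp from the gene. LHX2, a forebrain and eye factor, had no gene-end region. A strong H3K27ac region lay near LHX1 but outside the window, at 3450 bp (KO), 3538 bp (JmjD-dead) and 3591 bp (WT), with fold 49.0, 49.5 and 47.7 in that order. The nearest coding gene, AATF, lay 4342 bp from LHX1 and carried H3K27ac in WT. To which of these genes the region belongs was not tested.

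The T-box genes share a DNA-binding domain first known from brachyury. TBX2, a heart and limb factor, had 5 H3K27ac regions within 2.5 kb of its ends in KO cells, 3 in JmjD-dead cells and 0 in WT cells, where the nearest lay 4441 bp away. The best had fold 8.73 in KO and 7.08 in JmjD-dead cells. Within the gene and 10 kb either side, H3K27ac covered 4177 bp in KO, 3294 bp in JmjD-dead and 1257 bp in WT cells. H3K4me1 at TBX2 had fold 5.26 across a gene end in WT cells. The KO region, of fold 4.52, lay 671 bp outside the gene and overlapped no WT H3K4me1 region. TBX1, a factor of the pharyngeal arches, held H3K27ac of fold 6.23 (KO), 6.29 (JmjD-dead) and 6.33 (WT), over 865, 593 and 438 bp. In WT cells a 189 bp H3K27me3 region of fold 3.70 (chr22:19757157-19757345) lay inside the 438 bp H3K27ac region, and it ranked 16277 of 17355. H3K4me1 at TBX1 had fold 5.43 in KO and 6.48 in WT cells. TBX3 and TBX5, limb and heart factors, and TBXT, the mesoderm factor brachyury, had no gene-end region.

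Of the 7 basic helix-loop-helix genes, NEUROG2, a neurogenic factor, was the only one with a gene-end region in an antibody list, and it was listed in 7 of the 13. H3K27ac lay over the gene with fold 6.23 over 917 bp in KO, 8.65 over 443 bp in JmjD-dead, and 4.84 over 585 bp in WT cells. H3K4me1 at NEUROG2 reached fold 10.1 over the gene in WT cells, where KO had no region. The KO region, of fold 3.17, lay 917 bp upstream of the start, inside a fainter WT region. A place 1165 to 1187 bp upstream of the start held an H3K27me3 region in WT (280 bp, fold 4.44, chr4:112517367-112517646) and an HA region in the tagged line (243 bp, fold 3.13, chr4:112517345-112517587). A WT H3K4me1 region (706 bp, fold 3.64, chr4:112516950-112517655) and a JmjD-dead H3K27ac region (143 bp, fold 4.32, chr4:112517576-112517718) overlapped the same place. The HA region was among the faintest of its list, ranked 53790 of 54338 with a pileup of 8 tags. NEUROG1 and NEUROD1, neurogenic factors, OLIG1 and OLIG2, oligodendrocyte factors, and HAND1 and HAND2, heart and limb factors, had no gene-end region in the antibody lists. HAND1 had 1 in the KO input with fold 2.89.

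WT1, the kidney and gonad factor named after Wilms tumour, had no gene-end region either, although H3K27ac lay inside the gene. Among the 9 remaining homeobox genes, MSX1, a craniofacial factor, held an H3K27ac region across its start of fold 19.9 over 1501 bp in KO, 13.4 over 1360 bp in JmjD-dead, and 12.3 over 1487 bp in WT cells. H3K4me1 at MSX1 had fold 15.4 in WT, and no region was listed in KO. IRX2, a patterning factor of heart and lung, had a 200 bp H3K27ac region in KO only. EN1 and EN2, midbrain and hindbrain factors, MSX2 and OTX2, factors of skull and forebrain, and IRX1 and IRX3 had no gene-end region in any list, and DLX5, a bone and craniofacial factor, had 1 in KARPAS.

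Set against WT, no factor lost its H3K27ac in KO cells (0 of 8 marked in WT, against 1.93% of all genes marked in WT), and 2 of 38 unmarked factors gained it, TBX2 and IRX2, against 8.54% of all unmarked genes. In JmjD-dead cells NKX2-1 lost it (1 of 8, against 2.75%) and TBX2 gained it (1 of 38, against 4.58%). H3K27me3 was lost at TBX1 and NEUROG2 in both KO (2 of 2, against 61.9% of all genes marked in WT) and JmjD-dead cells (2 of 2, against 35.4%). It was gained at 0 of 44 factors in KO (against 6.83%) and at 1 of 44 in JmjD-dead cells, FOXC1 (against 16.4%). All 3 H3K27me3 calls rested on regions with fold of at most 5.06.

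For H3K4me1, 6 of the 10 factors marked in WT held no region in KO (PAX2, SOX9, NKX2-1, FOXC1, SIX2, MSX1), against 51.8% of all genes marked in WT. The count is by gene: NKX2-5 and TBX2 counted as kept, although their KO regions overlapped no WT region. PAX1, PAX7 and LHX1 were marked in KO only, 3 of 36, against 16.9% of all genes. The KO library had lower H3K4me1 folds at the typical marked gene: the median best fold at marked genes was 4.52 in KO and 30.4 in WT over all genes, and 3.62 in KO and 9.11 in WT over the marked factors. The part of that difference between libraries in the 6 losses was not tested.

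**Figure D3:**
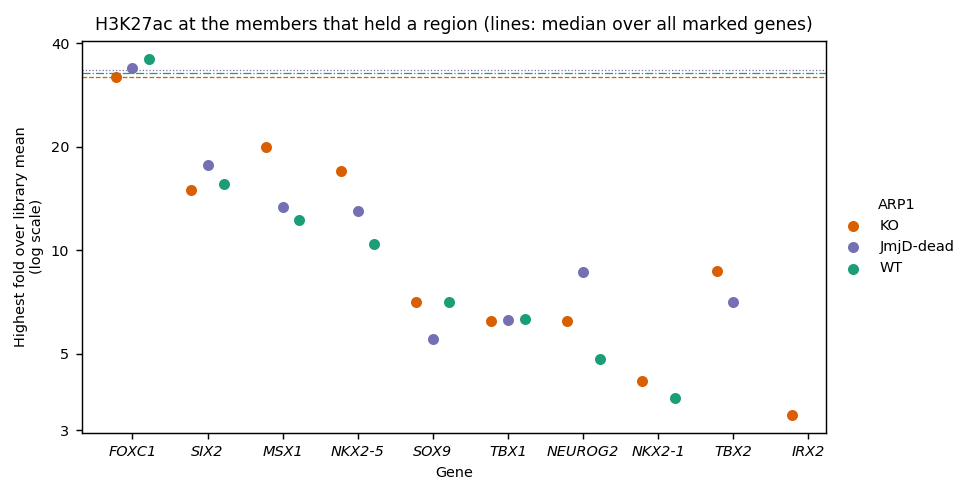
Highest H3K27ac fold over the library mean (y axis, log scale) at the 10 factors with a gene-end region in KO, JmjD-dead or WT ARP1 cells (1 library each; a missing point means no region); horizontal lines mark the median over all marked genes of each genotype. FOXC1 sits near the lines (32.0 in KO, 33.8 in JmjD-dead, 36.1 in WT), and the other 9 factors sit below them.

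Every marked factor other than FOXC1 had a best fold below the median of all marked genes. Over the marked factors, FOXC1 included, the median best fold was 7.90 in KO, 10.8 in JmjD-dead and 8.75 in WT cells, against medians of 32.0, 33.4 and 32.8 over all marked genes. NKX2-5 and MSX1 were both highest in KO and lowest in WT. TBX1 had nearly the same fold in the 3 libraries, and SOX9 had the same in KO and WT and less in JmjD-dead cells. FOXC1 ran the other way, lowest in KO and highest in WT. With 1 library a genotype these orders have no error attached.

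With flanks of 10 kb added to each gene, H3K27ac was found at 19 of 46 factors in KO, against 76.5% of all genes, at 17 in JmjD-dead, against 74.6%, and at 20 in WT cells, against 74.3%. For 15 factors with at least 500 bp covered in WT, the median ratio of covered length was 1.05 for KO over WT, with 9 above 1 and 6 below, beside 1.1 over 13964 genes. For JmjD-dead over WT it was 0.956, with 7 above 1 and 8 below, beside 0.982 over all such genes. Covered length also depends on the total called per library, which was 73.59 Mb in KO, 69.88 Mb in JmjD-dead and 70.96 Mb in WT. The flanks can also reach other coding genes, so a region there need not belong to the factor. Such neighbours with H3K27ac in WT included NEIL2 (9708 bp from GATA4), AATF (4342 bp from LHX1), PSD4 (6606 bp from PAX8) and BCAS3 (7012 bp from TBX2). Differences ran in both directions. Over these 15 the KO over WT ratio ran from 0.571 at HAND1 to 3.32 at TBX2. The JmjD-dead over WT ratio was 0.0 at LHX2, which had no JmjD-dead region there, 0.212 at OLIG2 and 0.59 at OLIG1, and at the high end 1.63 at GATA4 and 2.62 at TBX2. KO coverage was the largest of the 3 at IRX2, with 3580 bp in KO and 0 bp in both other genotypes, at PAX2, with 1364 bp in KO, 447 bp in JmjD-dead and 152 bp in WT, and at WT1, with 5770, 1692 and 2721 bp in the same order.

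**Figure D4:**
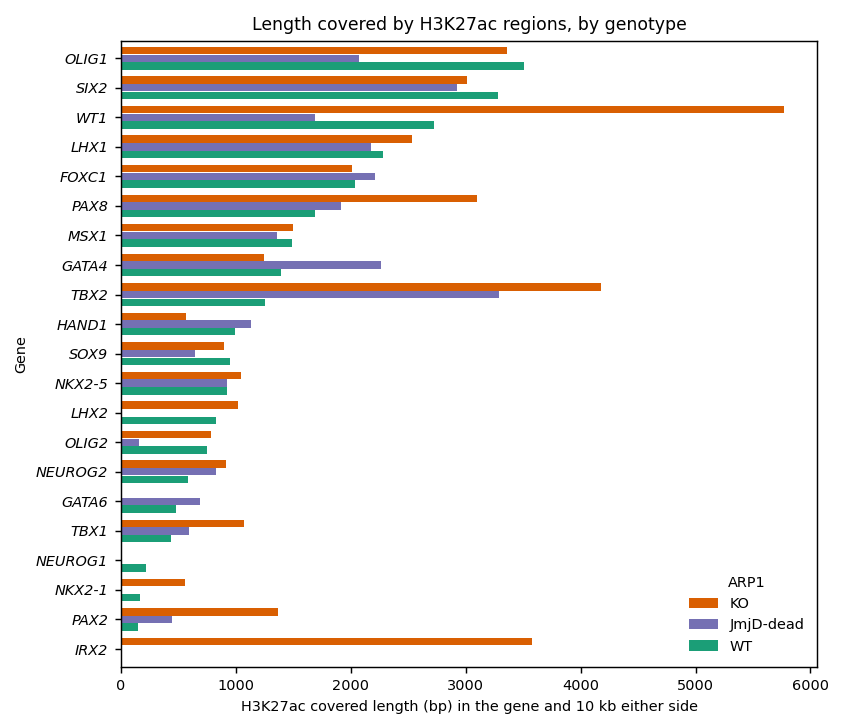
H3K27ac covered length (bp, x axis) in the gene and 10 kb either side for the 21 factors with any region there, in KO, JmjD-dead and WT ARP1 cells (1 library each). The KO bar exceeds the other 2 at WT1 (5770 bp), TBX2 (4177 bp), IRX2 (3580 bp) and PAX8 (3102 bp), while FOXC1, MSX1 and SIX2 have bars of similar length in the 3 genotypes.

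Distances were measured for all 46 factors, marked ones included. The median distance from a gene end to the nearest H3K27ac region was 20476 bp in KO, 37196 bp in JmjD-dead and 34489 bp in WT cells, against 10, 31 and 26 bp over all coding genes. It exceeded 50 kb at 14 (KO), 19 (JmjD-dead) and 18 (WT) of the 46, against 12.7%, 14.0% and 14.3% of all genes. No region of H3K27ac, H3K27me3 or H3K4me1 lay within 10 kb of 19 factors: PAX3, PAX6, PAX9, SOX2, SOX17, NKX6-1, FOXA1, FOXA2, TBX3, TBXT, NEUROD1, HAND2, EN1, EN2, DLX5, MSX2, OTX2, IRX1 and IRX3. The matching share over all genes was not computed. The nearest H3K27me3 region lay at a median of 262434 bp (KO), 84229 bp (JmjD-dead) and 125540 bp (WT), against 116022, 24431 and 54912 bp over all genes. The 8 factors with H3K27ac in WT had a median gene length of 4127 bp and a range of 2665 to 26891 bp, against medians of 10099 bp for the other 38 and 24170 bp for all genes. The nearest coding neighbour also carried H3K27ac in WT for 6 of those 8 and for 13 of the other 38, beside 61.6% of all coding genes.

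The 2.5 kb limit put few factors near the edge. Just inside it were the KARPAS KDM6A region at DLX5 (2308 bp) and the KO H3K4me1 region at LHX1 (2336 bp), and just outside it was the KO H3K27ac region at OLIG1 (2586 bp). Taking for each factor its nearest H3K27ac region in WT, the farthest one inside the limit was at TBX1 (266 bp) and the closest one outside it at LHX1 (3591 bp). No other coding gene had an end within 2.5 kb of a region assigned to a factor.

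In ARP1 cells the KDM6A antibody lists held no region at the gene ends of these factors. A region was listed at 0 of 46 in KO cells, where 4.24% of all genes had one, and at 0 of 46 in WT cells, against 9.70%. Regions of WT with no overlapping KO region therefore also lay at 0 of 46, against 8.28%, which adds nothing to the WT count. In KARPAS, 2 of 46 factors had one, against 24.9%. FOXA1 had a 550 bp region of fold 7.69 (chr14:37588988-37589537), 15 bp beyond its lower coordinate, which is the far end of the gene from its start, and DLX5 had a 393 bp region of fold 6.10 (chr7:97027139-97027531). HA regions lay at 1 of 46 in the tagged line (NEUROG2), against 20.1%, and at 0 of 46 in the untagged line, against 18.5%. The NEUROG2 region had no untagged counterpart (1 of 46, against 16.0%). Input regions lay at 2 of 46 in KO (GATA4 and HAND1), against 4.31%, at 0 of 46 in JmjD-dead, against 1.07%, and at 0 of 46 in WT, against 1.68%. No antibody region at a factor lay on an input region.

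Looking inside the genes and 10 kb either side, a choice made after these values were seen, KDM6A regions lay at 0 of 46 factors in KO, against 14.0% of all genes, at 5 in WT (NKX2-2, GATA6, TBXT, HAND1, WT1), against 36.8%, and at 10 in KARPAS, against 54.9%. HA regions lay at 8 in the tagged line, against 44.0%, and at 0 in the untagged line, against 35.6%. Places where a KDM6A region of WT with no KO counterpart met an HA region of the tagged line with no untagged counterpart occurred at 2 of 46, WT1 and HAND1, against 19.1% of all genes. Both control lists held many regions of their own, so lack of a control counterpart does not by itself make a region a KDM6A site. Inside WT1 the KDM6A region was 695 bp long with fold 7.97 (chr11:32420814-32421508). The HA region over it was 1087 bp long with fold 15.3 (chr11:32420629-32421715) and ranked 1898 of 54338.

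The same place in WT1 held H3K27ac in all 3 genotypes and differed in extent. In KO cells 1 region of 5446 bp with fold 24.9 (chr11:32419831-32425276) lay there. In JmjD-dead cells there were 7 short regions, the best of fold 9.83 and 354 bp. In WT cells there were 3, the best of fold 13.4 and 1843 bp (chr11:32420346-32422188). KARPAS had no KDM6A region on this site. At HAND1 the shared site lay upstream of the start, with a KDM6A region of fold 4.78 (chr5:154487626-154487882) and an HA region of fold 6.96 (chr5:154487546-154487990). H3K27ac covered 30 bp (KO), 445 bp (JmjD-dead) and 445 bp (WT) of this HA region. Of the HA region in WT1 it covered 1087, 674 and 1087 bp in the same order. At OLIG1 an HA region of the tagged line (770 bp, fold 10.1, chr21:33078879-33079648) coincided with a KARPAS KDM6A region (797 bp, fold 14.3, chr21:33078878-33079674), inside H3K27ac of fold 20.8 in KO, 16.9 in JmjD-dead and 31.6 in WT cells. ARP1 WT cells had no KDM6A region there.

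IRX2 stood in a stretch of chromosome 5 that differed between the H3K27ac lists, as was noticed after its values were seen. Its gene-end region in KO was faint (fold 3.32, chr5:2752134-2752333). Within 50 kb of the gene KO cells had 9 H3K27ac regions, this one among them, and the longest were 5944 bp with fold 28.7 (chr5:2758793-2764736) and 5570 bp with fold 34.5 (chr5:2775429-2780998). JmjD-dead and WT cells had none within 50 kb, and the nearest lay 571930 bp and 571948 bp from a gene end. Within 500 kb of the gene the lists held 57 H3K27ac regions in KO, 0 in JmjD-dead and 0 in WT, and 28 H3K4me1 regions in KO against 1 in WT. The medians over the 46 factors were 18 (KO), 17 (JmjD-dead) and 17 (WT) H3K27ac regions in such a window, and over all genes 33, 31 and 29. Of all coding genes, 29 (0.145%) had an excess of KO over WT as large as that of IRX2.

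The stretch filled much of the interval between IRX4 and IRX1 (chr5:1887180-3595831, 1.71 Mb), which holds IRX2. H3K27ac regions there numbered 84 in KO, 3 in JmjD-dead and 3 in WT, covering 56630, 2044 and 2096 bp. H3K4me1 regions numbered 60 in KO and 6 in WT. Few of the KO H3K4me1 regions overlapped a KO H3K27ac region, and none lay on the 5944 bp or 5570 bp blocks. Their highest folds were 14.0 (chr5:3323643-3324302), 13.6 (chr5:2099043-2099459) and 10.9 (chr5:2145514-2147037). The first and last of these places held H3K27ac in JmjD-dead and WT as well. The other lists did not share the KO excess in number of regions. H3K27me3 had 7 (KO), 11 (JmjD-dead) and 4 (WT) regions, and KDM6A 4 in KO, 12 in WT and 5 in KARPAS. HA had 8 in the tagged and 7 in the untagged line, and input 5 (KO), 3 (JmjD-dead) and 3 (WT). Among the HA regions of the tagged line, 1 of 411 bp with fold 4.88 (chr5:2761555-2761965) lay inside the 5944 bp KO block. Others also lay on KO H3K27ac regions without a JmjD-dead or WT counterpart, at chr5:3249520-3249828, chr5:3300889-3301088 and chr5:3395126-3395640. The last was inside a KO region of 3972 bp with fold 33.7. No untagged HA region in the interval lay on such a KO region. The tagged line carries the knock out label, and a link to genotype was not tested. IRX1, at the far edge, had 56 (KO), 15 (JmjD-dead) and 13 (WT) H3K27ac regions within 500 kb and none at its ends. A KO input region of 152 bp with fold 2.89 (chr5:2775895-2776046) lay inside the 5570 bp KO block. With inputs of at most 724630 fragments, copy number over the stretch was not tested. The KDM6A genotype and any other difference between the KO line and the rest cannot be told apart here.

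Counted in bins of 1 Mb, the bin that starts at 2 Mb on chromosome 5 had 49 (KO), 1 (JmjD-dead) and 1 (WT) H3K27ac regions, which placed it at order 7 of 2905 bins by the excess of KO over WT. The 6 bins above it already held 60 to 202 regions in WT. Of the 8547 highest ranked KO regions, down to the weaker of the 2 long IRX2 blocks, 3 had no JmjD-dead or WT region within 50 kb. All 3 lay in this stretch. The 2 blocks set the limit after they were seen, so they had to be counted. The third lay at chr5:2559359-2561717 with fold 35.7. JmjD-dead cells had 4 such regions on 4 chromosomes, each 133 to 144 bp long, and WT cells had 0.

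**Figure D5:**
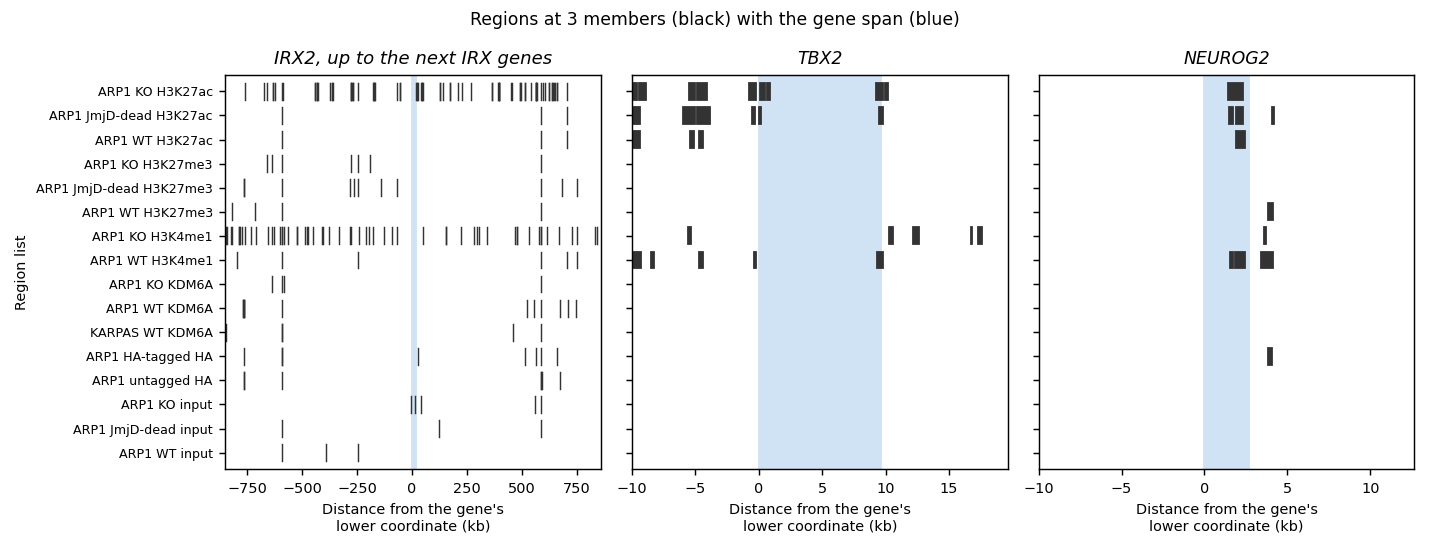
Regions of all 16 lists (rows; KO, JmjD-dead and WT or tagged and untagged in that order) at IRX2, TBX2 and NEUROG2, by distance from the lower gene coordinate (kb, x axis), with the gene shaded. The IRX2 panel runs from IRX4 to IRX1 and draws each region as a line at its middle; KO H3K27ac has 84 lines, JmjD-dead 3 and WT 3, while the TBX2 panel shows KO and JmjD-dead regions at the gene ends where WT has none.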

How the data were processed

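The 16 human lists of ChIP-seq regions were used, 1 library per group, grouped by titles, genotype and antibody labels. The 4 mouse fibroblast lists were not used here. The submitters' processing notes name GRCh38, Bowtie2, MACS2 2.1.2, Trimmomatic, MultiQC and FastQC. Per the file headers, the caller was MACS 2.2.7.1 for input, H3K27ac and H3K27me3 and 2.1.1.20160309 for the others. Also per the file headers, regions were narrow, called with no control library and no local background (q-value limit 0.05), so repeats and copy number gains can give regions. KDM6A and HA tags were extended to 200 bp, per the file headers. Each deposited row holds a pileup signal, a fold (ratio) over the library mean, and the −log10 of its p-value and of its q-value. These are the authors' values and serve only to rank, filter and describe regions within a list.

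Rows with shared coordinates were merged, contigs other than numbered chromosomes and X were left out, and regions were ranked by −log10 q, then fold. Marked genes had a region no farther than 2.5 kb from either end in the RefSeq GRCh38.p14 table (lost: marked in WT only; gained: marked in the mutant only). With 1 library a group no test was run. Main counts stand beside the share over all genes, but counts joined over all genotypes or lists and most alternative settings do not. The selection text speaks of 48 genes, and the 46 that were listed were used. The members and lists were chosen with earlier results of these data known. Named with values were factors with H3K27ac in WT, with a state of H3K27ac or H3K27me3 that differed, or with WT-only KDM6A or tagged-only HA regions; others are given by name and count. PAX8, LHX1, WT1, OLIG1 and HAND1 sites away from gene ends and the IRX2 interval were chosen after their values were seen. Alternatives were −log10 q of at least 5, windows of 10 kb, the promoter window, removal of regions on input or of H3K27me3 regions on H3K27ac, 50% overlap, and covered length in the gene without flanks. Python 3.11.15 with numpy 2.4.6, pandas 2.3.3 and matplotlib 3.10.9 was used, and the overlap functions were tested on simulated regions.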

Additional observations from a re-analysis of the deposited data

How the results depend on the processing

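Values below are numbers of factors, and a share over all genes is given only for the −log10 q limit. Removing regions on input, requiring 50% overlap for KDM6A and HA, and measuring covered length in the gene without flanks changed no value beyond the limit of 1.5 times for counts. With −log10 q of at least 5, H3K27ac gained in KO fell to 1 (IRX2 lost its call) and H3K27ac lost in JmjD-dead to 0. H3K27me3 then lay at 0 in JmjD-dead and 0 in WT, with losses of 0 in KO and 0 in JmjD-dead and a gain of 0 in JmjD-dead. H3K4me1 lay at 1 in KO, with a gain of 0, and HA at 0 in the tagged line, with 0 lacking an untagged region. At this limit the lists also shrank over all genes. H3K27me3 lay at 4.01% (KO), 3.69% (JmjD-dead) and 1.78% (WT) of all genes. H3K4me1 lay at 7.74% of all genes in KO and 61.1% in WT, and tagged HA at 11.8%. With windows of 10 kb, H3K27ac lay at 19 (KO), 15 (JmjD-dead) and 17 (WT), with losses of 2 in KO and 3 in JmjD-dead and a gain of 4 in KO. H3K27me3 lay at 2 (KO), 4 (JmjD-dead) and 6 (WT), with losses of 4 in KO and 6 in JmjD-dead and a gain of 4 in JmjD-dead. H3K4me1 lay at 14 in KO and 19 in WT, KDM6A at 4 in WT (4 of them without a KO region) and 7 in KARPAS, and HA at 7 in the tagged line (7 without an untagged region). In the promoter window of 31 factors, H3K27ac lay at 4 (KO), 3 (JmjD-dead) and 3 (WT), with a gain of 1 in KO and, in JmjD-dead, a loss of 0 and a gain of 0. H3K27me3 lay there at 0 in JmjD-dead and 0 in WT, with losses of 0 in KO and 0 in JmjD-dead and a gain of 0 in JmjD-dead, KARPAS KDM6A at 0 and tagged HA at 0 (0 without an untagged region). Without H3K27me3 regions on H3K27ac, H3K27me3 lay at 0 in JmjD-dead and 1 in WT, with losses of 1 in KO and 1 in JmjD-dead and a gain of 0 in JmjD-dead. The lower counts follow from dropping or narrowing what is counted, and the higher ones from the wider window. No paired analysis was possible because each group had 1 library and no replicate numbers were shared. The H3K27me3 lists rest on at most 10449019 fragments, and no interval or floor can be given for a region that is not listed.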
